A study of Mus musculus with 4 samples.

Results

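The probes described here are those for olfactory receptor genes that gave a signal clearly above background in whole mouse embryos. A probe was counted as detected when at least 1 of the genotypes carried the scanning software's mark for a signal well above background on all 4 arrays. Of 960 probes whose gene name starts with Olfr, 137 met this rule (14.3%), against 54.3% of all other non-control probes. They stand for 133 of 913 olfactory receptor gene names and for 137 of 21976 detected probes among 41174 on the array. The members were chosen by the brightness of their spots, and no computed ratio between the genotypes was used. The choice still depends on the ratio for 17 members marked on all 4 arrays in wild type only and 6 in mutant only.

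Mutant embryos carried V1330M, a missense change that arose in Btaf1 under the mutagen ENU, on both copies and were compared with wild-type embryos. Both genotypes came from crosses of C57BL/6J and FVB/NJ, with an FVB/NJ share of 50 to 90%, and 3 to 5 somites was the stage sought. RNA from pools of whole embryos was hybridised to two-colour arrays of 60-base probes, 1 mutant and 1 wild-type pool per array. In the stage_matched set the pools had like somite counts; in the age_matched set litter mates were favoured and up to 5 somites of difference was allowed. Array 1 of each set carried the mutant RNA in the red dye Cy5 and array 2 carried it in the green dye Cy3. Both arrays of a set measured 1 pair of pools, so n = 2 sets throughout. The labels give neither the number of embryos in a pool nor whether the sets had embryos in common; each SD, interval and p-value treats the sets as separate samples.

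Olfactory receptors are G protein-coupled receptors that detect odorants in the nose. The family is the largest in the mouse genome, and its genes lie mostly in clusters. Each mature olfactory neuron transcribes a single receptor allele, while the remaining genes are packed in heterochromatin, and in other tissues the family is largely silent. Embryos with a few somites have not yet formed olfactory neurons. BTAF1 is an ATPase that takes the TATA-binding protein TBP off DNA. The question put to the data was whether probes for genes of this kind show a ratio between mutant and wild type.

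The sequences below are the probes on which the account turns, with G and C in capitals because the detected share differed with base composition. Positions are those of the array files (mm9); exons and untranslated regions are not given. The first 3 are the brightest detected probe and both probes of Olfr234, of which only the first was detected. The next pair are both probes of Olfr1036, again with only the first detected. The last 3 are the members with the lowest ratio, the highest ratio and the lowest intensity.
Olfr571, chr7:110058002-110058061, minus strand, 46.7% G + C: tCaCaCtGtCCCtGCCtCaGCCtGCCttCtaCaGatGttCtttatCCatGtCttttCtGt
Olfr234, detected, chr15:98328602-98328661, plus strand, 60% G + C: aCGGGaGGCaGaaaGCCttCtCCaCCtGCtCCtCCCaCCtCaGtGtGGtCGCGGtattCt
Olfr234, not detected, chr15:98328418-98328477, plus strand, 55% G + C: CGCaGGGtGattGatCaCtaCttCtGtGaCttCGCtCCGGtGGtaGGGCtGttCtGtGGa
Olfr1036, detected, chr2:85915196-85915255, plus strand, 45% G + C: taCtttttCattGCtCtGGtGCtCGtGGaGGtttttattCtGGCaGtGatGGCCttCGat
Olfr1036, not detected, chr2:85915509-85915568, plus strand, 38.3% G + C: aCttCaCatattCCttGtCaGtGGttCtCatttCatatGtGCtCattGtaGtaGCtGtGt
Olfr430, chr1:176000058-176000117, plus strand, 40% G + C: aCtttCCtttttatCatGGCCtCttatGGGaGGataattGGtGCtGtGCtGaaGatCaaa
Olfr868, chr9:19905467-19905526, plus strand, 45% G + C: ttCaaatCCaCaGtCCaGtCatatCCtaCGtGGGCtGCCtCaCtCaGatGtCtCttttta
Olfr1507, chr14:53109772-53109831, minus strand, 45% G + C: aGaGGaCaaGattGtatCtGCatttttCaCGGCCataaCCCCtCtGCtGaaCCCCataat

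On average over the 4 arrays, 19.6% of the 960 olfactory receptor probes carried the mark for mutant RNA and 19.7% for wild-type RNA, against 56.6% and 58.2% of other probes. Within each array, however, the Cy5 channel held the larger share whichever genotype it carried. With the mutant in Cy5 the shares were 19.0% for mutant and 16.1% for wild type on stage_matched array 1, and 26.7% and 18.1% on age_matched array 1. With the mutant in Cy3 they were 15.9% and 21.6% on stage_matched array 2, and 17.0% and 23.1% on age_matched array 2. The means were 22.6% for Cy5 and 16.8% for Cy3. For other probes they were 58.4% and 56.4%, with Cy5 the larger on every array except stage_matched array 1. The software's weaker mark, a signal positive and significant against the local background, was set on 56.8% of the probes for mutant and 56.4% for wild type. By that mark the means were 57.0% for Cy5 and 56.2% for Cy3. On age_matched array 2 the order was reversed, at 59.1% for Cy5 and 60.2% for Cy3.

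The members were dim. Their median scanner signal, in arbitrary units before any correction, was between 165 and 239 over the 8 channels, with the quartiles between 152 and 270. The median of the 153 negative-control spots, which match no mouse transcript, was between 101 and 161, and 0% to 2.61% of those spots were well above background in a channel. Receptor probes that were not detected had medians between 112 and 172. In average log2 intensity the members ran from 6.75 to 9.88 with a median of 7.07, while the median of all tested probes was 8.89, and 123 of the members (90.4%) lay below the lower quartile of the tested probes. Intensity is a property of the probe as well as of the RNA and does not rank the genes by transcript level.

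The detected share rose with the G + C content of the probe. Of receptor probes with under 40% G + C, 15 of 383 were detected (3.92%). The share was 12.1% from 40 to 45% (40 of 330), 27.9% from 45 to 50% (55 of 197) and 54% at 50% or more (27 of 50). The detected probes had a median G + C content of 45%, against 40% for receptor probes that were not detected. Their mean share of A was 19.1% against 24.5%, and of C 27.0% against 22.4%, while T was close in both (36.0% and 35.4%). Other tested probes in the same intensity bins held less T (28.7%) and more A (28.3%).

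Probes of the same gene often disagreed. Of 43 receptor genes with more than 1 probe, 13 had a detected probe, and in 9 of these the other probe was not detected. The detected probe had the higher G + C content in 7 of the 9 and the same content in the other 2, with medians of 45% and 38.3%. For Olfr234, the detected probe was marked on 4 of 4 arrays in both genotypes and the other on 1 array in mutant and 2 in wild type. For Olfr1036, the detected probe was marked on 3 arrays in mutant and 4 in wild type, and the other on 0 in both.

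In the genome, detected members were found on most chromosomes that hold the family. Chromosome 7 gave 34 of its 207 receptor probes (16.4%), chromosome 2 gave 29 of 244 (11.9%), chromosome 11 gave 15 of 63 (23.8%) and chromosome 9 gave 10 of 123 (8.13%). In the RefSeq gene table of GRCm38.p6, 76 members lay between 2 other olfactory receptor genes (55.5%, against 65.8% of the receptor probes not detected), 51 had 1 such neighbour and 10 had none. The genes of 3 members overlapped a gene outside the family (2.19%, the same share as for undetected probes). These were Olfr1507 and Olfr1509 within Tcra, the T cell receptor alpha locus, and Olfr524 within Cd163l1. For 19 members (13.9%) the array annotation lists more than 1 RefSeq transcript for the probe, against 12.8% of the other receptor probes. Whether these transcripts belong to different genes was not checked, so such probes may not tell related receptors apart.

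No detected olfactory receptor probe was called different between the genotypes. In limma on the means of the 2 sets, with p adjusted by Benjamini-Hochberg across 21940 tested probes, 0 of 136 tested members had an adjusted p under 0.05, while 4.81% of all tested probes did (1.66% higher and 3.14% lower in mutant). Among other probes in the 3 intensity bins that hold 132 of the members (6.5 to 8), the share was 3.19%. At an unadjusted p under 0.05 there was 1 member, Olfr430 (0.735%), against 22.9% of all tested probes and 17.7% of other probes in those bins. The lowest adjusted p of a member was 0.139. From the scanning software's own processed signals, and likewise from the ratios of the authors' deposited table, limma called 1 member, Olfr430 at -0.49 (adjusted p = 0.0456 in both). In each of these settings 1824 of 21940 tested probes were called.

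The members' ratios were small and narrowly spread. The mean log2 ratio of mutant over wild type ran from -0.27 (Olfr430, 1.21-fold lower) to 0.18 (Olfr868, 1.13-fold higher), with quartiles at 0.020 and 0.10. Other tested probes in the same intensity bins, 12676 in all, had quartiles at -0.13 and 0.095. That pool includes bins above 8, which hold only 4 members, and the other probes of the dimmer bins were less spread. From 6.5 to 7 (51 members) their quartiles were -0.082 and 0.061, against 0.0040 and 0.092 for members. From 7 to 7.5 (67 members) they were -0.11 and 0.087, against 0.031 and 0.12. The 95% interval of a member reached a median of 0.21 to either side. Over all members the intervals ended between -0.49 and 0.39. The offset added in the background correction draws ratios of dim spots toward 0. With an offset of 10 in place of 50 the members ran from -0.37 to 0.27. None was called, while 1990 of 21940 tested probes were.

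The median of the members stood slightly above 0. It was 0.063 over both sets, 0.048 for the stage_matched pools and 0.081 for the age_matched pools, while the median was -0.0028 for all tested probes and -0.0077 for other probes in the same bins. The mean ratio was above 0 for 114 of 136 members (83.8%), against 47.9% of other probes in the same bins and 49.3% of all tested probes. This is a description of the chosen members and has no test; with 2 sets, an exact two-sided permutation test cannot give a p under 0.5. The members' median was 0.16 from the processed signals and 0.012 when each array was centred on its median in place of loess. On that last scale the other probes of like intensity had a median of -0.049.

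The median of each array depended on which dye carried the mutant. It was 0.16 on stage_matched array 1 and 0.17 on age_matched array 1, both with the mutant in Cy5. It was -0.065 on stage_matched array 2 and -0.020 on age_matched array 2, both with the mutant in Cy3. For other probes in the same bins the 4 medians lay between -0.017 and -0.0020. The number of members above 0 was 117 and 123 on the arrays with the mutant in Cy5 and 42 and 55 on the other two. Leaving out an array leaves 1 set with a single dye orientation: the members' median was 0.0074 without stage_matched array 1, 0.11 without stage_matched array 2, 0.0050 without age_matched array 1 and 0.11 without age_matched array 2.

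The dye difference, taken as the ratio with the mutant in Cy5 minus the ratio with the mutant in Cy3 and averaged over the sets, compares the dye orientations of a probe. Its median was 0.21 over the members and 0.011 over other probes in the same bins, with quartiles of 0.093 to 0.33 and -0.18 to 0.18. It was above 0 for 119 members (87.5%), against 51.6% of the other probes. Cy5 exceeded Cy3 on all 4 arrays for 52 members (38.2%), against 10.1% of all tested probes and 9.39% of other probes in the bins. The reverse held for 1 member, Olfr368, named after its values were seen, against 11.1% of all tested probes. The dye difference was larger in size than the genotype ratio for 112 of 136 members. The genotype ratio averages the dye orientations while the dye difference subtracts them, so that count is not on a like scale. Set against the sum of the ratios of the orientations, averaged over the sets, the dye difference was larger in size for 96 members. Neither count was compared with other probes.

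The members' median dye difference was larger in brighter bins. In the bin from 6.5 to 7 (51 members, 1841 other probes), the median dye difference was 0.14 for members and 0.0011 for others, and the median ratio 0.047 and -0.0013. From 7 to 7.5 (67 and 3212 probes) the dye difference was 0.26 and 0.032, and the ratio 0.065 and -0.00086. From 7.5 to 8 (14 and 2377 probes) the dye difference was 0.32 and 0.022, and the ratio 0.081 and -0.016. The last 4 members were brighter, 2 of them between 8 and 8.5.

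Across the 136 members, described without a test because the probes share arrays and sequence families, the dye difference had a Pearson correlation of 0.33 with the share of T in the probe, 0.32 with G, -0.36 with A, -0.30 with C and 0.0035 with G + C. Over 7430 other probes of the bins from 6.5 to 8, the correlations were 0.27 for T and -0.20 for A. For G the value there was -0.050, of opposite sign to the members, and for C it was -0.050, nearer to none. For G + C it was -0.084. The part of base composition in the dye difference was not tested.

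The brightest members were not called, and most changed sign with the dye. For Olfr571 the scanner signals were 963, 902, 1227 and 734 for mutant and 959, 1009, 1157 and 1176 for wild type, in the order stage_matched 1 and 2, then age_matched 1 and 2. Its log2 ratios were 0.31, -0.25, 0.20 and -0.12, a mean of 0.037 ± 0.0063 (SD, n = 2; adjusted p = 0.846 in limma). The sign turned with the dye in both sets, and the dye difference was 0.44.

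Olfr234, which the gene table now names Olfr279 and places beside the milk protein gene Lalba, had scanner signals of 463, 395, 563 and 333 for mutant and 422, 496, 490 and 487 for wild type. Its ratios were 0.34, -0.30, 0.30 and -0.015 in the same order, with a mean of 0.080 ± 0.089 (adjusted p = 0.669 in limma). Both arrays with the mutant in Cy5 were above 0 and both others below. Its undetected probe had a mean ratio of 0.0029.

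Olfr744 had ratios of -0.028, -0.31, 0.15 and -0.13, with a mean of -0.082. Olfr174 had 0.16, -0.21, 0.39 and -0.11 (mean 0.056), and Olfr1226 had 0.26, -0.14, 0.34 and -0.098 (mean 0.088). Olfr549 had 0.28, -0.20, 0.38 and -0.041 (mean 0.10). In each of the last 3, the arrays with the mutant in Cy5 were above 0 and the others below.

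Olfr544, a receptor for a dicarboxylic acid, had 0.16, -0.24, 0.11 and 0.055 (mean 0.019). Olfr462 differed most between the sets, at -0.30 for the stage_matched pools and 0.15 for the age_matched pools, with -0.61 on stage_matched array 2 alone.

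Olfr430 had the lowest ratio, with scanner signals of 218, 176, 272 and 150 for mutant and 206, 289, 229 and 276 for wild type. Its ratios were -0.15, -0.53, 0.18 and -0.58, with a mean of -0.27 ± 0.099 (SD, n = 2; 95% interval -0.49 to -0.055; adjusted p = 0.139 in limma). It was below 0 on 3 of 4 arrays, and its dye difference of 0.57 was the largest among the members. The other 7 lowest were Olfr522 (mean -0.17), Olfr1065 (-0.14), Olfr622 (-0.13), 1 probe of Olfr456 (-0.097), Olfr744, Olfr1153 (-0.082) and Olfr462 (-0.079). Olfr522 had -0.28, -0.46, 0.22 and -0.15 in the order given above.

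Olfr868 had the highest ratio, with scanner signals of 197, 145, 218 and 158 for mutant and 142, 198, 172 and 203 for wild type. Its ratios were 0.19, 0.045, 0.15 and 0.32, all above 0, with a mean of 0.18 ± 0.082 (95% interval -0.038 to 0.39; adjusted p = 0.307 in limma). The next were Olfr906 (mean 0.17, with 0.36, -0.032, 0.40 and -0.043), 1 probe of Olfr1344 (0.17), Olfr441 (0.17), Olfr12 (0.17), Olfr63 (0.16), Olfr642 (0.15) and Olfr71 (0.15). Of these 8, Olfr868, Olfr1344, Olfr441, Olfr63 and Olfr642 were above 0 on all 4 arrays. In all, 16 members were above 0 on all 4 arrays (12.5% of all tested probes were) and 1, the same probe of Olfr456, was below 0 on all 4 (15.1% of all tested probes were).

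For 4 genes both probes were detected, which gives each a second reading. Olfr635 had means of 0.12 and 0.100, with 0.28, -0.15, 0.25 and 0.11 on the first and 0.24, -0.23, 0.30 and 0.091 on the second; only stage_matched array 2 was below 0 on either. Olfr1344 had 0.17 and 0.10, all 8 values above 0. Olfr166 had 0.13 and 0.036, and Olfr456 had 0.0080 and -0.097, although the probes of Olfr456 overlap in position. The second Olfr166 probe was spotted 10 times per array, with an SD between spots of 0.074 to 0.16.

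Members detected on all 4 arrays in both genotypes numbered 114; 17 were detected on all 4 in wild type only and 6 in mutant only, always with at least 2 arrays in the other genotype. The median ratio was 0.065 over 113 tested members detected in both, 0.041 over the 17 and 0.068 over the 6. For other probes of bins 6.5 to 8 these medians were 0.011, -0.094 and 0.11. Detection in a single genotype selects by the ratio itself, so nothing is read from the last 2 groups. Of the 8 brightest such members, Olfr1036, Olfr1122, Olfr1280, Olfr1437, Olfr187, Olfr434 and Olfr684 were marked on 3 arrays in mutant and Olfr24 on 3 in wild type. Their mean ratios ran from -0.041 (Olfr434) to 0.098 (Olfr1122).

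At the edge of the rule, the dimmest members were Olfr1507 (average log2 intensity 6.75, mean ratio -0.0005), Olfr30 (6.77, 0.041) and Olfr283 (6.78, 0.085). The brightest probes just outside were Olfr1411 (6.94, 0.0084), Olfr1211 (6.84, 0.11) and Olfr1126 (6.83, 0.11), of 36 probes whose better genotype was marked on 3 of the 4 arrays. Of the remaining receptor probes, 654 were detected on no array in either genotype. Over 821 undetected receptor probes with a ratio on every array, the median ratio was 0.020, the median dye difference 0.028, and 63.7% were above 0. One member, Olfr411, was not tested because its spot was marked as faulty on age_matched array 1, where the scanner signal was 751 for mutant and 656 for wild type, against 171 to 252 on the other arrays.

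No member was called for a difference between the sets. In a limma model of the 4 arrays that held a set term and a dye term, 0 of 136 members passed, against 2.31% of all tested probes. At an unadjusted p under 0.05 there were 2, Olfr462 (stage_matched minus age_matched -0.45, adjusted p = 0.201) and Olfr522 (-0.41, adjusted p = 0.271). The error of this test comes from dye-exchanged arrays of the same pools and holds no spread between embryos.

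Several defining genes of olfactory neurons were not detected. Of 14 markers of olfactory neurons and the olfactory placode, 9 were detected and tested; Omp, the olfactory marker protein, Gnal, the olfactory G protein alpha subunit, the channel Cnga2, Stoml3 and Neurod1 were not. The brightest of those reported here was Pax6, a placode transcription factor (-0.15 ± 0.058, adjusted p = 0.375 in limma).

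In the olfactory signalling list, 7 of 17 genes on the array were tested and 0 were called, with a median of -0.030 and 2 at an unadjusted p under 0.05. The brightest were Gnb1 (0.12), Ric8b (-0.087) and Reep1 (-0.25), which act in G protein signalling and receptor trafficking in many cells. Of 20 regulators of receptor choice and silencing, 19 were tested, with a median of -0.011. Atf5, a stress-response factor of the feedback that stabilises receptor choice, was higher on all 4 arrays, at 0.41, 0.69, 0.68 and 0.97 (mean 0.68 ± 0.19, adjusted p = 0.0174 in limma). Lhx2, a LIM homeodomain activator of receptor genes, was lower on all 4, at -0.80, -0.16, -0.75 and -0.17 (mean -0.47 ± 0.013, adjusted p = 0.0304), with the larger values where the mutant was in Cy5. In whole embryos fewer cells of a type and less RNA per cell cannot be told apart.

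The heterochromatin genes in that list were not called. The brightest genes were Cbx3 (-0.12 ± 0.19), which binds methylated histone H3, the H3K9 methyltransferase Ehmt2 (0.080 ± 0.21) and Cbx1 (-0.26 ± 0.34). All 10 genes of the TBP list were tested, with a median of 0.035. Tbpl1, a TBP-related factor, was higher at 0.69, 0.35, 0.67 and 0.32 (mean 0.51 ± 0.017, adjusted p = 0.0256 in limma). The next brightest, the general factors Gtf2b (0.024 ± 0.021) and Gtf2a2 (0.10 ± 0.069), were not called. Named for their role, Tbp had a mean of 0.046 ± 0.083 and Btaf1, the mutated gene, 0.10 ± 0.031, neither called (adjusted p = 0.813 and 0.555 in limma). With the families described next, the lists held 4 calls among 76 tested genes and probes, while 4.81% of all tested probes were called. They held 0 calls without background correction, 0 without age_matched array 1 and 2 without stage_matched array 1. Calls over all 21940 tested probes numbered 62, 23 and 572 in these settings, against 1055 in the main fit.

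Other families that are usually silent in most tissues, picked by the start of the gene name, were measured in the same way. Over 7 families, 32 probes were tested and 0 called by limma (0 at an unadjusted p under 0.05; 0 from the processed signals). Their median ratio was 0.059, their median dye difference 0.22, and 23 of 32 (71.9%) were above 0. The vomeronasal receptors had 13 of 141 probes detected (9.22%) with a median ratio of 0.029, and the keratin-associated proteins 8 of 34 (23.5%) with a median of 0.049. Detected probes numbered 4 of 8 for alpha interferons, 2 of 30 for beta-defensins, 2 of 16 for taste receptors, 2 of 6 for major urinary proteins and 1 of 4 for trace amine receptors. The brightest in the larger families were V1rb8 (-0.0077 ± 0.20) and V1rc8 (0.027 ± 0.058) among vomeronasal receptors and Krtap3-1 (0.15 ± 0.027) and Krtap16-9 (-0.072 ± 0.22) among keratin-associated proteins.

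Windows around RefSeq gene starts ran from 250 bases before to 50 after the start (GRCm38.p6). Because BTAF1 acts on TBP, they were searched for the letters TATAAA on both strands. The members' windows covered 111 genes, while 133 gene names had a detected probe. The letters were found in 40 of 112 windows of detected members' genes (35.7%), in 42.3% of 662 windows of other olfactory receptor genes and in 13.6% of all 32851 windows in the table. TAATTA, a homeodomain motif, was found in 25% of the members' windows, 17.8% of those of the other receptors and 5.29% of all. Both motifs hold only A and T, and the base composition of the windows was not compared. A match describes the letters in these windows and is not a measured site.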

How the data were processed

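Spot intensity and background intensity for each dye were deposited as scanner output and not normalized, per the file headers. The processed intensity was background-subtracted and dye-normalized before deposit, as the headers record. The scanner's log10 ratio is Cy5 over Cy3; the value table deposited by the authors holds this log10 ratio turned to mutant over wild type (largest difference 5e-06, median 0 on each array). The submitters' processing notes name Feature Extraction 9.5.3 and the headers 10.5.1.1.

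With limma 3.58.1 (R 4.3.3), faulty spots were left out, normexp with offset 50 and loess within arrays were applied, control spots had weight 0, the sign was turned on array 2, and spots of a probe were averaged. Detected probes were tested on the 2 set means (7.12 prior degrees of freedom). The number of arrays limits precision, and p-values measure no spread beyond these pools. Each p-value and interval also draws on the spread pooled over all 21940 tested probes, most of them brighter than the members. For Olfr571 the SD between the sets was 0.0063 and the standard error used was 0.091. The script was tested on simulated data with effects larger than the ratio of any member. That test does not cover effects of the members' size.

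Comparison probes shared bins of average log2 intensity, 0.5 wide. The text names the 8 highest, lowest and brightest members, genes with several detected probes, members at the edge of the rule, up to 8 detected in 1 genotype, and the called and brightest genes of each list, by the brightest probe per gene. From the family lists, 3 names that share only the first letters (Ifnar1, Ifnar2, Mupcdh) were left out after they were seen. Members and lists were chosen with earlier results of these data known. All 137 members matched the gene table, 131 by accession. Alternatives covered background correction, normalization, the detection filter, bin width, left-out arrays and the deposited ratios. Some genes of the marker list are not reported here, though they count in the list totals.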

Additional observations from a re-analysis of the deposited data

How the results depend on the processing

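Mutant and wild type share each array, so the contrast is already paired within arrays and no further pairing was added. The array number marks the dye orientation. No member was called under 11 of 13 alternatives. From the processed signals and from the deposited ratios 1 was called, Olfr430 in both. The ratios of these 2 settings were nearly the same, so this is 1 result. Over all 21940 tested probes, calls numbered 1055 in the main fit and 1824 in each of these 2 settings. They numbered 62 without background correction and 23 to 1208 with 1 array left out. Of 483 ratios of named members under alternatives, 47 turned sign, none of them past the threshold. The members' median ratio was 0.088 with normexp at offset 10, 0.16 from the processed signals, 0.16 from the deposited ratios and 0.012 with median centring, and ran from 0.0050 to 0.11 with 1 array left out. The median of other probes in the members' bins, each bin weighted by its members, was -0.0013. It was 0.033 from the processed signals, 0.030 from the deposited ratios, -0.049 with median centring and -0.0051 with no filter on dim probes. With both channels required it was 0.017, with the mutant channel alone 0.017, with bins of 1 log2 unit -0.0068, and with 1 array left out between -0.0067 and 0.0031. Calls among the 76 tested genes and probes of the lists and families numbered 4, with 0 without background correction and 0 to 5 with 1 array left out. The share of receptor probes marked was 56.8% for mutant and 56.4% for wild type by the weaker mark. Detected members numbered 114 to 173 under other detection rules. The causes of these shifts were not tested. Signals near those of negative controls and the 2 sets limit what could be called among the members.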
